A study of Mus musculus with 7 samples.

Results

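Inflammatory cytokines and chemokines were followed in RNA-seq libraries of the retinal pigment epithelium (RPE) from aged mice. The genes are Ccl2, Cxcl12, Cxcl16, Cx3cl1, Il1b, Il6, Il18, Il33, Mif and Tnf, taken by symbol, and all 10 were found among the 21861 rows of the count table. The RPE is the pigmented epithelium behind the photoreceptors. One group, AAV-GFP, comprised 3 libraries from eyes given an adeno-associated virus (AAV) carrying GFP, and the other, AAV-GSTA4, comprised 4 libraries from eyes given AAV carrying GSTA4, a glutathione transferase that conjugates aldehydes formed by lipid peroxidation. All were collected 12 weeks after treatment, and both groups carried a vector, so no untreated eye stands in the comparison. The labels give neither the strain, sex and exact age of the mice, nor the vector's promoter and serotype, nor whether animals were pooled or one animal gave one library. The p-values therefore measure only the spread between these samples, which may be technical.

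Chemokines attract leukocytes through G protein-coupled receptors, and cytokines such as interleukin-1β, interleukin-6 and tumour necrosis factor (TNF) switch on inflammatory programmes in the cells that bind them. Many of these genes are induced through the transcription factor NF-kB, whereas Mif and Il33 are stored as protein in resting cells. In the eye, the RPE, resident microglia and macrophages of the choroid are all known sources, and chemokines that draw monocytes beneath the retina are studied in retinal ageing.

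The promoter sequences of a few of the genes show how differently they are built, and they are printed for the 3 genes with the lowest levels, for the gene with the highest level and for the one gene with an unadjusted p-value under 0.05. The RefSeq promoter table (GRCm38.p6) held 9 windows for 8 of the 10 genes, and Ccl2 and Cxcl16 had none. Each sequence below is the 100 bases before the annotated transcription start, 5′ to 3′ on the gene's strand. Capitals mark a match to TATAAA, the core of the TATA box, or to the NF-kB consensus. Both strands were searched over 250 bases before the start, and matches to the 2 motifs did not overlap.
Tnf, chr17:35202008-35202107, minus strand: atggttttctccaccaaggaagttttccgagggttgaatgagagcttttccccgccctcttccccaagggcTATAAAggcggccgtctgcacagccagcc
Il1b, chr2:129371140-129371239, minus strand: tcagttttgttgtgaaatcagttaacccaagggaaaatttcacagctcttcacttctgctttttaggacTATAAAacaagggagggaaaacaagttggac
Il6, chr5:30013014-30013113, plus strand: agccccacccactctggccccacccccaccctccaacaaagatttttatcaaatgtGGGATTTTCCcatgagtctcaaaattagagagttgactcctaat
Mif, chr10:75860278-75860377, minus strand: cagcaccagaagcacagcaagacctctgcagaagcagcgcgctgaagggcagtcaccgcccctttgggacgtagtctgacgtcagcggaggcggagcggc
Cxcl12, chr6:117168435-117168534, plus strand: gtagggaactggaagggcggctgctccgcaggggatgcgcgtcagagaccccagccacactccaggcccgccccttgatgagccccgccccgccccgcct

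TATAAA was found in the windows of 5 genes, namely Tnf, Il1b, Cx3cl1, Il18 and Il33. It began at position -29 in Tnf and -31 in Il1b, counted from the transcription start. Of all 32851 promoter windows in the table, 12.4% held TATAAA. The NF-kB consensus was found only in Il6 among these windows, beginning at position -44, and 7.25% of all windows held it. The CG dinucleotide occurred 14 times in the 250 bases before Cxcl12 and also before Cx3cl1, 11 times before Mif and 10 times before Tnf. It occurred 4 times in each window of Il33, 3 times before Il6 and 2 times or fewer before Il1b and Il18. The median over all windows was 6. A motif match is a description of the letters only.

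Depth and library makeup were as follows. Total counts ran from 15329181 to 28998964 per library, so that the detection floor of 3 counts lay between 0.111 and 0.176 CPM (the count relative to the library total, scaled by the trimmed mean of M-values). AAV-GFP replicate 3 stood apart, with log2 CPM values that correlated with those of the remaining libraries at 0.838 on average, against 0.91 to 0.926 for each of these. It also had the lowest total count. Its trimmed-mean factor was 1.36, against 0.868 to 1.05 in the other libraries, which lowers its scaled CPM relative to CPM of library totals. The human GSTA4 transgene row had 1 to 3 counts in AAV-GFP and 45 to 5239 counts in AAV-GSTA4, so that it separated the groups. In AAV-GSTA4 this row was at 221, 251, 2.64 and 43.6 CPM in order of replicate. AAV-GSTA4 replicate 3 thus held far less of the transgene than the rest of its group. The d2EGFP row did not separate the groups, because the library with the label AAV-GFP replicate 1 held 4.61 CPM of it and AAV-GSTA4 replicate 1 held 8.57 CPM. RPE markers summed to 22562 to 69654 CPM in AAV-GFP and 60619 to 107376 CPM in AAV-GSTA4, and all 14 of them passed the expression filter.

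Levels were ordered across the 10 genes per length of transcript. Length-normalised levels (RPKM, the CPM divided by the exon length in kilobases) were computed over the union of exons in GENCODE M21, which is on the build GRCm38 that the submitters' processing notes name for mouse. Mif had a mean of 524 RPKM ± 118 (SD over 7 libraries). Il18 and Il33 followed at 52.1 ± 19.4 and 42.5 ± 14.5 RPKM, and Il18 was the higher of the pair in only 4 of 7 libraries. Cx3cl1 and Cxcl16 were at 10.3 ± 4.81 and 8.51 ± 4.33 RPKM, and Cx3cl1 was the higher in 3 of 7 libraries. Cxcl12 at 3.25 ± 1.06 RPKM and Ccl2 at 1.57 ± 0.555 RPKM each lay above the next gene in 7 of 7 libraries. Tnf and Il1b were lowest among the genes that were tested, at 0.49 ± 0.231 and 0.406 ± 0.337 RPKM, with Tnf the higher in 4 of 7 libraries. Il6 was at 0.0507 ± 0.0565 RPKM. Apart from these pairs, the order was broken in AAV-GFP replicate 3, where Cx3cl1 at 20.7 RPKM exceeded Il18 at 16.5 RPKM and Il6 exceeded Il1b, which had no counts.

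Il6 was under detection. Its counts were 0, 0 and 4 in the AAV-GFP libraries and 0, 2, 6 and 6 in the AAV-GSTA4 libraries, in order of replicate. In 4 of 7 libraries the count was 3 or fewer, the median was 2, and the gene did not pass edgeR's expression filter. Both groups held libraries at 0, so no fold change is given, and the difference in log2 CPM did not exceed the replicates' spread (two-sided exact permutation test, p = 0.314, where the smallest value 3 against 4 libraries allow is 0.0286). Il1b was under the floor in 1 library only. All other genes had more than 3 counts in every library.

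The comparison of AAV-GSTA4 with AAV-GFP asked whether GSTA4 expression altered these transcripts in the aged RPE. Of the 9 genes tested, 0 passed an adjusted p of 0.05 (edgeR quasi-likelihood F-test, Benjamini-Hochberg over all 15075 genes tested), where 0% of all genes passed, and the smallest adjusted p-value among the 9 was 0.384. The human GSTA4 transgene row did not pass either, although its counts separated the groups. Without adjustment, 1 gene had p under 0.05, Cxcl12, which was lower in AAV-GSTA4, and at that threshold 6.63% of all genes were lower and 5.27% higher. In DESeq2 0 of the 6 genes that kept an adjusted p-value passed, where 1.30% of all genes did. The log2 fold change was below 0 for 6 of the 9 genes, Ccl2, Cxcl12, Cxcl16, Cx3cl1, Il33 and Tnf, against 55.4% of all genes tested. The median log2 fold change of the 9 genes was -0.36, beside -0.07 over all genes. All 4 chemokines were among the 6. A difference that misses the threshold here does not show that the levels were alike, since the 95% intervals of the log2 fold changes reached from -1.36 to 0.18 for Cx3cl1 and from -2.57 to 2.98 for Il1b.

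**Figure D1:**
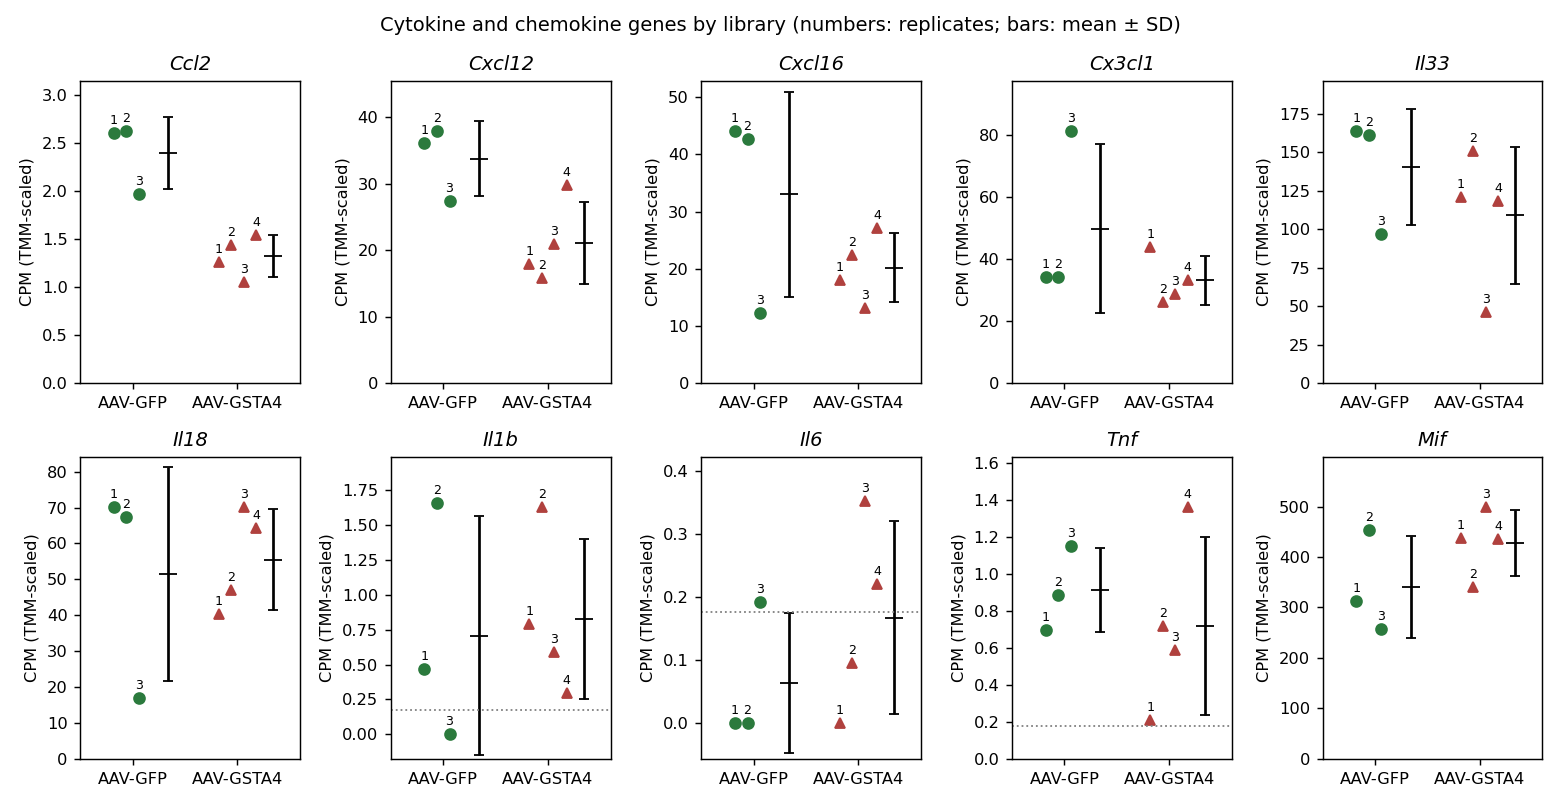
CPM of the 10 genes in each library, with AAV-GFP as circles (n = 3), AAV-GSTA4 as triangles (n = 4), replicate numbers beside the points and bars for the mean ± SD; the dotted line in the panels of Il1b, Il6 and Tnf is the highest detection floor, 0.176 CPM. For Ccl2 the AAV-GSTA4 libraries lie at 1.06 to 1.55 CPM, below the AAV-GFP libraries at 1.97 to 2.62 CPM, and in the other panels the groups overlap on this scale.

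Cxcl12 (chr6:117168535-117181367, plus strand) encodes the ligand of Cxcr4 and Ackr3, a chemokine made by stromal and endothelial cells that retains leukocytes and progenitor cells in tissues. It was at 36.1, 37.9 and 27.4 CPM in the AAV-GFP libraries and at 17.98, 15.8, 20.9 and 29.9 CPM in the AAV-GSTA4 libraries, in order of replicate. On this scale the groups overlapped only through AAV-GSTA4 replicate 4, which exceeded AAV-GFP replicate 3. In CPM of plain library totals AAV-GFP replicate 3 was at 37.3 and AAV-GSTA4 replicate 4 at 27.9, so the groups of Cxcl12 did not overlap, as for Ccl2, where 12.0% of all genes were separated in this direction. AAV-GFP averaged 33.8 CPM ± 5.58 (SD, n = 3) against 21.1 CPM ± 6.19 (SD, n = 4), for a log2 difference of -0.68 ± 0.27 (SE; edgeR, adjusted p = 0.384, unadjusted p = 0.0317). The unadjusted value was above 0.05 in 5 of the 7 fits that each left out 1 library, and the log2 fold change over those fits was -0.87 to -0.55.

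Ccl2 (chr11:82035571-82037453, plus strand), the chemokine that recruits monocytes through Ccr2, was the one gene of the 10 whose groups did not overlap in CPM scaled by the trimmed mean, where among all genes tested 5.61% were separated in this direction and 6.44% in the other. Its counts were small: 56, 68 and 41 in AAV-GFP and 24, 30, 18 and 42 in AAV-GSTA4. These correspond to 2.61, 2.62 and 1.97 CPM and to 1.26, 1.44, 1.06 and 1.55 CPM. Every AAV-GFP library thus lay above the highest AAV-GSTA4 library. The log2 fold change of Ccl2 was -0.85 ± 0.56 (SE; edgeR, adjusted p = 0.555), and it lay between -0.97 and -0.75 when any 1 library was left out.

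Ccl2 lies in a cluster of chemokine genes on chromosome 11, and the neighbours Ccl7, Ccl11, Ccl12 and Ccl8 follow it on the same strand up to position 82116799. These neighbours were picked for their position after their values were known. Ccl7 had a log2 fold change of -1.09, Ccl11 of -0.35, Ccl12 of -0.92 and Ccl8 of -1.63, with adjusted p-values from 0.448 to 0.854 in edgeR's test. Ccl8 was at 214, 207 and 10 counts in the AAV-GFP libraries and at 26, 37, 52 and 47 counts in AAV-GSTA4. AAV-GFP replicate 3 was therefore the lowest library for Ccl8, and it had 0 counts of Ccl7. Without that library the log2 fold change was -2.18 for Ccl8 and -1.67 for Ccl7 (edgeR, adjusted p = 0.313 and 0.388).

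Cxcl16 (chr11:70453983-70459984, minus strand) and Cx3cl1 (chr8:94772009-94782427, plus strand) are the chemokines made as membrane-anchored proteins, which the proteases Adam10 and Adam17 can release. Cxcl16 was at 44.0, 42.7 and 12.3 CPM in the AAV-GFP libraries and at 18.1, 22.5, 13.2 and 27.1 CPM in AAV-GSTA4. AAV-GFP replicates 1 and 2 lay above all AAV-GSTA4 libraries and AAV-GFP replicate 3 below all of them. The log2 fold change was -0.71 ± 0.42 (SE; edgeR, adjusted p = 0.523). Leaving out AAV-GFP replicate 3 gave -1.10 (edgeR, adjusted p = 0.313), and without AAV-GFP replicate 1 it was -0.44. Exons of Cxcl16 overlap those of Zmynd15 on the opposite strand by up to 552 bases, and the library kit does not mark strand. Zmynd15 itself had 4 to 97 counts per library, against 225 to 1106 for Cxcl16. The 97 counts were in AAV-GFP replicate 3, where Cxcl16 had 257.

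Cx3cl1, or fractalkine, signals from neurons and epithelial cells to microglia through Cx3cr1. It was at 34.2, 34.3 and 81.3 CPM in AAV-GFP and at 44.1, 26.2, 28.9 and 33.5 CPM in AAV-GSTA4. AAV-GFP replicate 3 was the highest of the 7 libraries, and the other AAV-GFP libraries lay within the range of AAV-GSTA4. The log2 fold change of -0.59 ± 0.34 (SE; edgeR, adjusted p = 0.506) became -0.04 without AAV-GFP replicate 3. It was -0.79 without AAV-GFP replicate 1 and also without AAV-GFP replicate 2. The difference in Cx3cl1 thus rested on a single library, the same one that lowered the AAV-GFP mean of Cxcl16.

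**Figure D2:**
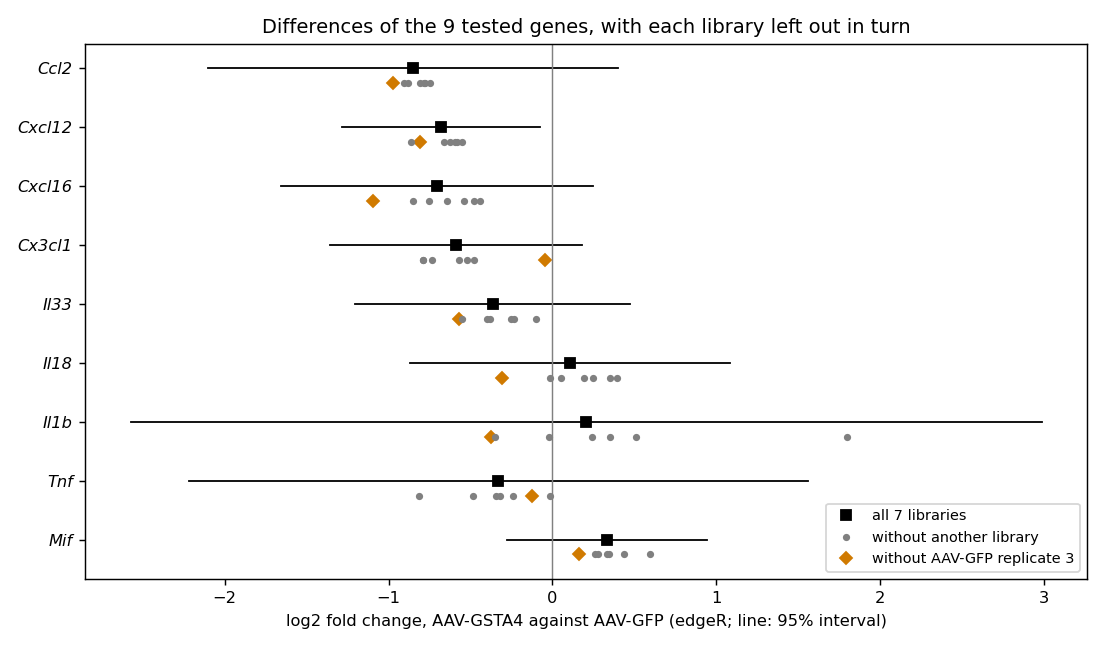
Log2 fold change (AAV-GSTA4 over AAV-GFP) of the 9 tested genes: squares are the fit of all 7 libraries with its 95% interval, and the points beneath are fits without 1 library each, with diamonds for the fit without AAV-GFP replicate 3. Without that library Cxcl16 moves from -0.71 to -1.10 and Cx3cl1 from -0.59 to -0.04, while Ccl2 and Cxcl12 stay below 0 in all 7 such fits.

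Il33 (chr19:29925114-29960718, plus strand) encodes a nuclear cytokine released from damaged barrier cells, the alarmin ligand of Il1rl1. It was at 164, 161 and 96.8 CPM in AAV-GFP and at 121, 151, 46.3 and 119 CPM in AAV-GSTA4. AAV-GSTA4 replicate 3 was lowest, and AAV-GFP replicate 3 fell among the AAV-GSTA4 libraries. For Il33 the log2 fold change was -0.36 ± 0.37 (SE; edgeR, adjusted p = 0.723), and without AAV-GSTA4 replicate 3 it was -0.10.

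Il18 and Il1b are made as precursors that the inflammasome protease Casp1 cleaves. Il18 (chr9:50554827-50581840, plus strand) was at 70.1, 67.4 and 17.03 CPM in AAV-GFP and at 40.2, 47.1, 70.1 and 64.3 CPM in AAV-GSTA4. AAV-GFP replicate 3 was the lowest library, and the other AAV-GFP libraries were near the top of the AAV-GSTA4 range. For Il18 the log2 fold change was 0.11 ± 0.44 (SE; edgeR, adjusted p = 0.943), and without AAV-GFP replicate 3 it was -0.31. Il1b (chr2:129364570-129371139, minus strand) had 10, 43 and 0 counts in AAV-GFP and 15, 34, 10 and 8 counts in AAV-GSTA4. Its log2 fold change of 0.21 ± 1.24 (SE; edgeR, adjusted p = 0.965) ranged from -0.37 to 1.79 as single libraries were left out, so these counts did not set a direction.

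Tnf (chr17:35199381-35202007, minus strand), the trimeric ligand of Tnfrsf1a and Tnfrsf1b, was near the floor as well. It had 15, 23 and 24 counts in AAV-GFP and 4, 15, 10 and 37 counts in AAV-GSTA4, and AAV-GSTA4 replicates 1 and 4 were the lowest and highest of the 7 libraries on the CPM scale. For Tnf the log2 fold change was -0.33 ± 0.84 (SE; edgeR, adjusted p = 0.904), and it was -0.01 without AAV-GSTA4 replicate 1 and -0.82 without AAV-GSTA4 replicate 4. Its neighbours in the same locus, Lta and Ltb, encode related ligands. Ltb had a log2 fold change of 0.37 (edgeR, adjusted p = 0.917), or -0.16 without AAV-GFP replicate 3, and Lta did not pass the expression filter.

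Mif (chr10:75859353-75860240, minus strand), a constitutively expressed cytokine with tautomerase activity that binds Cd74, was the most abundant of the 10. It was at 313, 453 and 256 CPM in AAV-GFP and at 438, 341, 499 and 435 CPM in AAV-GSTA4. AAV-GFP replicate 2 lay within the range of AAV-GSTA4, and the other AAV-GFP libraries lay below all of AAV-GSTA4. For Mif the log2 fold change was 0.33 ± 0.27 (SE; edgeR, adjusted p = 0.647). With library totals in place of the trimmed-mean scaling it was 0.06, while the median of all genes moved from -0.07 to -0.37, so relative to the median Mif was higher under both scalings. Reads of Mif can match its processed pseudogenes, and how the counting treated reads with several matches is not given in the sources used here.

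The receptors, decoys and scavengers of these ligands were taken as a list of 22 genes, of which 20 were tested. In edgeR's test 0 passed the adjusted threshold and 0 had an unadjusted p-value under 0.05, with 12 lower, 8 higher and a median log2 fold change of -0.27. The smallest p-values belonged to Il1r1, the signalling receptor of interleukin-1, and Cd44, a co-receptor of Cd74. Il1r1 was at 8.33, 5.71 and 9.36 CPM in AAV-GFP and at 1.95, 5.66, 1.35 and 5.38 CPM in AAV-GSTA4, so that the lowest AAV-GFP library, at 5.71 CPM, barely exceeded the highest AAV-GSTA4 library, at 5.66 CPM, and the log2 fold change was -1.12 ± 0.55 (SE; edgeR, adjusted p = 0.448). Cd44 was at 152.6 CPM in AAV-GSTA4 replicate 2 and at 11.3 to 24.6 CPM in the other libraries. Its log2 fold change of 1.42 became -0.03 without that library. Among the direct receptors, the median counts over 7 libraries were 94 for Ccr2, 14 for Cxcr4, 1481 for Ackr3, 23 for Cxcr6 and 81 for Cx3cr1. Their log2 fold changes were -0.27, 0.11, 0.43, 1.21 and -0.26, with unadjusted p-values from 0.176 to 0.913.

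Proteins that mature or release the ligands were a list of 11 genes. Of the 10 tested, 0 passed the adjusted threshold (edgeR), 5 were lower and 5 higher, and the median log2 fold change was -0.24. The inflammasome sensor of cytosolic DNA, Aim2, was at 2.05, 4.17 and 6.43 CPM in AAV-GFP and at 1.10, 1.82, 1.82 and 1.36 CPM in AAV-GSTA4. The groups did not overlap, where 5.61% of all genes tested were separated in this direction. The log2 fold change of Aim2 was -1.46 ± 0.55 (SE; edgeR, unadjusted p = 0.0247, adjusted p = 0.375). It was -1.03 without AAV-GFP replicate 3 and -0.38 with the rod marker covariate, the mean log2 level of the rod markers. The rod marker sums did not overlap between the groups, so a fit with this covariate can hardly separate rod level from group. The sheddases Adam10 and Adam17 had log2 fold changes of 0.40 and 0.46 (edgeR, adjusted p = 0.512 and 0.508). Nlrp3 did not pass the expression filter.

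The list of NF-kB signalling genes held 24 genes, all of them tested. Of these, 0 passed the adjusted threshold (edgeR), 14 were lower and 10 higher, and the median log2 fold change was -0.11. The ubiquitin-editing enzyme A20, encoded by Tnfaip3, is induced by NF-kB and inhibits it. Tnfaip3 was at 52.8, 101 and 176 CPM in AAV-GFP and at 54.2, 54.03, 39.6 and 35.5 CPM in AAV-GSTA4, with a log2 fold change of -1.26 ± 0.37 (SE; edgeR, unadjusted p = 0.00659, adjusted p = 0.363). AAV-GFP replicate 1 lay within the range of AAV-GSTA4. Traf6, the ubiquitin ligase that relays interleukin-1 and Toll-like receptor signals, was at 29.2, 19.7 and 9.55 CPM in AAV-GFP and at 36.6, 45.3, 36.6 and 42.3 CPM in AAV-GSTA4, with a log2 fold change of 1.04 ± 0.35 (SE; edgeR, adjusted p = 0.363). AAV-GFP replicate 3 was the highest library for Tnfaip3 and the lowest for Traf6, and without it their log2 fold changes were -0.75 and 0.72. Without AAV-GFP replicate 1 they were -1.59 and 1.46. With the rod marker covariate, which can hardly be separated from group, Tnfaip3 was at -0.01 and Traf6 at 0.25.

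Other chemokines, a list of 29 genes of which 28 were in the table, were mostly at low counts, and 7 of them had a median of 3 counts or fewer. Of the 20 tested, 16 had a log2 fold change below 0, beside 55.4% of all genes tested. Their median was -0.79, beside -0.07 over all genes, but 0 passed the adjusted threshold (edgeR) and 1 had an unadjusted p-value under 0.05. That was Cxcl13, which attracts B cells, with 51, 110 and 49 counts in AAV-GFP and 6, 14, 8 and 30 counts in AAV-GSTA4. The log2 fold change of Cxcl13 was -2.20 ± 0.68 (SE; edgeR, adjusted p = 0.363). Its groups did not overlap, where 5.61% of all genes tested were separated in this direction. Other cytokines numbered 32 genes, of which 17 were tested, with 12 lower and 0 past the adjusted threshold, and their log2 fold changes had a median of -0.31. Tnfsf12, which encodes TWEAK, was at 4.84, 6.25 and 13.6 CPM in AAV-GFP and at 4.15, 3.07, 3.46 and 3.28 CPM in AAV-GSTA4. Tnfsf13b, which encodes the B-cell factor BAFF, was at 0.698, 4.13 and 7.58 CPM in AAV-GFP and at 1.16, 1.39, 1.06 and 1.18 CPM in AAV-GSTA4. Their adjusted p-values in edgeR's test were 0.373 and 0.391, and for both genes AAV-GFP replicate 3 was the highest library. The log2 fold change of Tnfsf12 was -1.23, or -0.67 without that library and -0.23 with the rod marker covariate, and that of Tnfsf13b was -1.78, or -1.02 without the library and 0.39 with the covariate. Il10 and Ifng, the genes of interleukin-10 and interferon-γ, had 0 counts in all 7 libraries, which allows up to 0.176 CPM in the library with the highest floor.

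**Figure D3:**
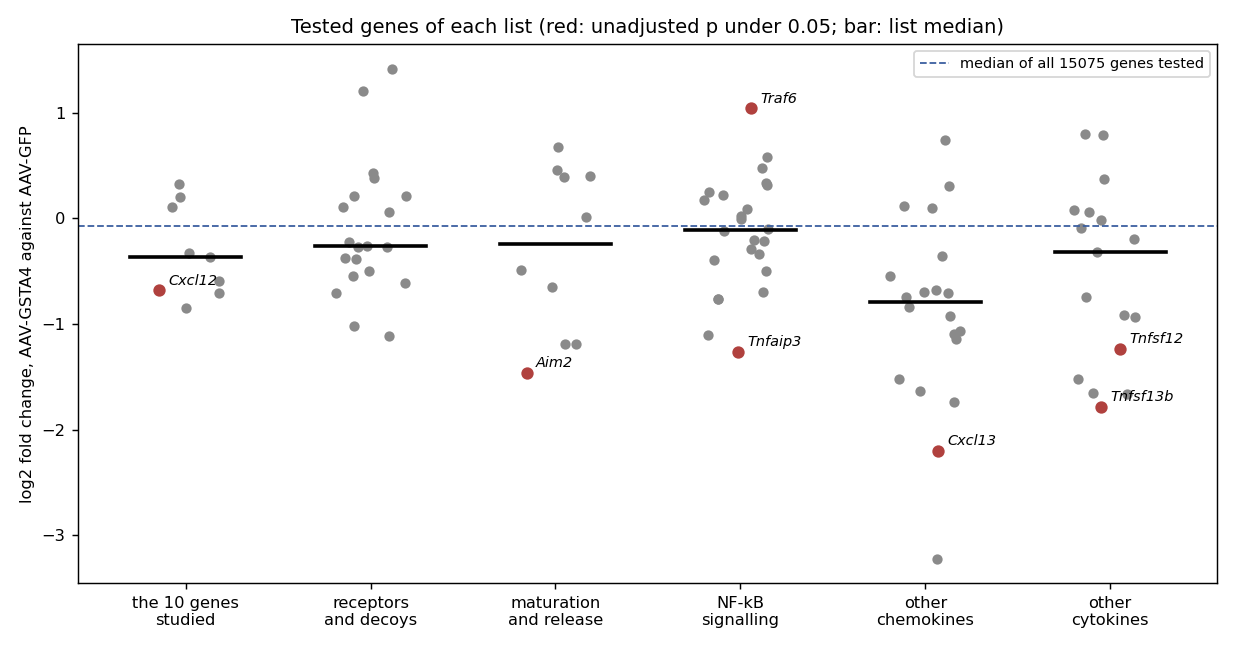
Log2 fold change (AAV-GSTA4 over AAV-GFP) of the tested genes of each list, with bars at the list medians, red points for an unadjusted p-value under 0.05 in edgeR's test and a dashed line at the median of all 15075 genes tested. The medians run from -0.11 for NF-kB signalling to -0.79 for the other chemokines, and 0 genes pass the adjusted threshold.

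Markers of cell types were summed in each library, as measurements beside the genes. In bulk RNA fewer cells of a type and less RNA per cell cannot be told apart, and these sums do not separate them. The 20 macrophage and microglia markers, led by Lyz2, summed to 4391, 3381 and 1481 CPM in AAV-GFP and to 1823, 2713, 2785 and 4030 CPM in AAV-GSTA4. Of these markers 18 had a log2 fold change below 0, beside 55.4% of all genes tested. The sums overlapped, however (two-sided exact permutation test, p = 0.743, 0.743 after adjustment over 11 marker lists). AAV-GFP replicate 3 had the lowest sum and was also the lowest library for Cxcl16, Il18, Mif and Il1b. In CPM of plain library totals it was lowest for Il18 and Il1b but not for Cxcl16, Mif or the macrophage sum, which was 2014 there against 1761 in AAV-GSTA4 replicate 1. On the trimmed-mean scale AAV-GSTA4 replicate 4 had the highest sum of its group, as it did for Ccl2, Cxcl12, Cxcl16 and Tnf. It was not the highest of its group for Cx3cl1, Il6, Il18, Il33 or Mif, and it was the lowest for Il1b. AAV-GFP replicate 3 was the lowest of its own group for Ccl2, Cxcl12 and Il33 too, but the highest for Cx3cl1, Tnf and Il6. With the mean log2 level of the macrophage and microglia markers as a covariate, the log2 fold change of Cxcl16 was -0.02 and that of Cxcl12 was -0.54. For Ccl2 it was -0.71 and for Cx3cl1 -0.97, the last at edgeR's adjusted p = 0.0677. The part of macrophages in these differences was not tested further.

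Rod markers, all 15 of them tested and all lower in AAV-GSTA4, summed to 15163, 25614 and 41661 CPM in AAV-GFP and to 14219, 12589, 13210 and 7667 CPM in AAV-GSTA4 (two-sided exact permutation test, p = 0.0286, the smallest value possible, and 0.236 after adjustment over 11 lists). Of all genes tested, 55.4% were lower. At an unadjusted p-value under 0.05 (edgeR), 14 of the rod markers were lower, against 6.63% of all genes tested. AAV-GFP replicate 3 was highest for the rod markers and for Cx3cl1. With the rod level as a covariate the log2 fold change was 0.21 for Cx3cl1, -1.18 for Cxcl12, -1.22 for Ccl2, -1.83 for Cxcl16, -0.91 for Il33 and -0.81 for Il18, and none of the 9 genes passed the adjusted threshold (edgeR). Since the rod sums of the groups did not overlap, no value given with this covariate cleanly separates rod level from group. Of the 11 endothelial markers 10 were lower, where 55.4% of all genes tested were. At an unadjusted p-value under 0.05 (edgeR), 0 of them were lower and 1 was higher. Their sums were 40.9, 54.7 and 200 CPM in AAV-GFP, where replicate 3 was again the highest, and 48.97 to 66.8 CPM in AAV-GSTA4. T and NK cell markers summed to 11.8 to 16.05 CPM and 7.09 to 13.3 CPM. All 8 tested markers were lower, where 55.4% of all genes tested were, and 0 of the 8 had an unadjusted p-value under 0.05 (edgeR). Neutrophil markers summed to 5.12 to 15.05 CPM and 6.05 to 8.15 CPM, and mast cell markers to 31.7 to 65.4 CPM and 16.7 to 36.5 CPM. Fibroblast and mural markers summed to 297 to 1258 CPM and 602 to 924 CPM, Mueller glia and astrocyte markers to 1012 to 1319 CPM and 708 to 1484 CPM, and cone markers to 348 to 771 CPM and 220 to 370 CPM. In no list was any marker at 0 in all 7 libraries. Whether the makeup of the libraries accounts for the values of the cytokines and chemokines was not tested.

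**Figure D4:**
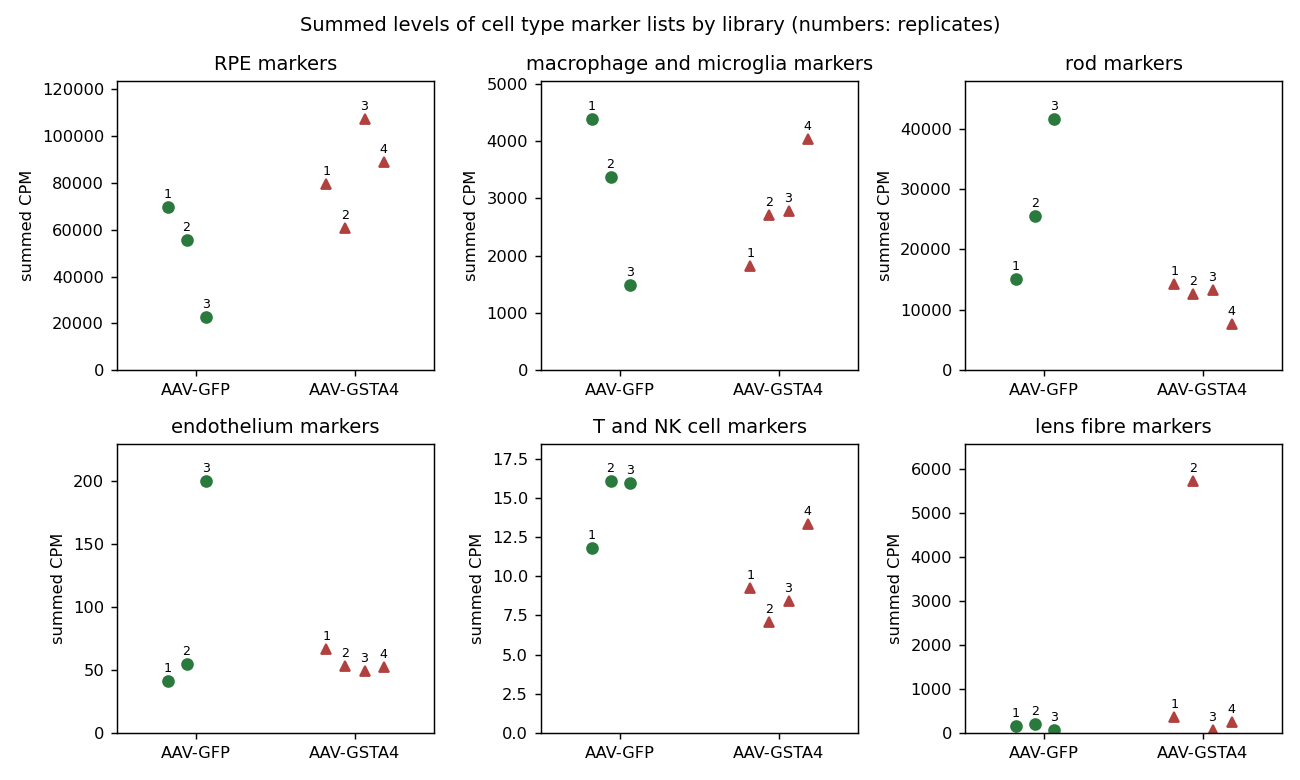
Summed CPM of 6 marker lists in each library, with AAV-GFP as circles, AAV-GSTA4 as triangles and replicate numbers beside the points. On this trimmed-mean scale AAV-GFP replicate 3 has the lowest RPE sum (22562 CPM) and macrophage sum (1481 CPM) and the highest rod sum (41661 CPM), and AAV-GSTA4 replicate 2 has the highest lens fibre sum (5721 CPM).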

How the data were processed

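The authors deposited raw read counts by gene symbol for each library; per the submitters' processing notes STAR 2.7.1a and featureCounts 1.6.2 were used, with mouse build GRCm38. Per the labels' protocols, polyadenylated RNA was made into full-length cDNA with a low-input kit, amplified and cut with a transposase; molecular identifiers are not named, so copies of a molecule made by PCR count separately. The gene annotation, how strand was used and how reads with several matches were counted are not given in the sources used here. Columns were matched to samples by library name.

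Counts were tested with edgeR 4.0.16 (R 4.3.3): trimmed-mean scaling, the default expression filter, a robust quasi-likelihood fit of the group over all 7 libraries, and Benjamini-Hochberg adjustment over all genes tested. Standard errors were obtained from the fold change and its F statistic. CPM values are scaled by the trimmed mean. Log2 CPM used a prior count of 2. Marker sums and Il6 were compared by an exact permutation test over 35 relabellings. A count of 3 or fewer was taken as under detection. The 26 extra rows of repeated symbols were kept. Genes named were the 10, then in each list those with an unadjusted p-value under 0.05 (at most 5 per direction) or else the 2 smallest; direct receptors, chromosomal neighbours, Adam10, Adam17, Nlrp3, Il10, Ifng and Zmynd15 were named outside that rule, with values known. The 10 genes and all lists were chosen with earlier results of these data known. Alternatives were other scalings and filters, DESeq2 1.42.0, replicate blocks, marker covariates and each library left out. The gene test was also run on simulated counts. Changes were placed there in genes of higher counts, without an outlying library, so that run does not cover genes at low counts.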

Additional observations from a re-analysis of the deposited data

Results flagged for a closer look

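In AAV-GSTA4, 1 of 21 results examined (the 10 genes and 11 marker sums) had a library isolated from the other 3 of its group, and chance gives about 5% of such results. It was the lens fibre marker sum, where replicate 2 was at 5721 CPM and the others at 61.5 to 361 CPM, so that the gap was 0.947 of the range. The same library had the 152.6 CPM of Cd44. None of the 10 cytokine and chemokine genes had such an isolated library in AAV-GSTA4. Groups of 3 were not examined, so AAV-GFP replicate 3 could not be flagged this way.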

How the results depend on the processing

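The number of the 10 genes past the adjusted threshold was 0 under all 16 alternatives, and so was the number in each of the 5 lists. Over all genes it was 0 in the edgeR fit, 167 in DESeq2, 1 with the replicate block by title number (hGSTA4), 1 with the replicate block by library number (hGSTA4), 1 with the rod marker covariate (Cyp2f2) and 0 to 1 when single libraries were left out (hGSTA4, without AAV-GSTA4 replicate 3); the cause was not tested. Deviations of same-numbered libraries correlated at r = -0.0889 to 0.00904 for the titles' numbers and -0.128 to 0.0146 for the library names' numbers. With so few pairs, these values cannot show whether such libraries were paired. With these blocks 849 and 1148 genes had an unadjusted p-value under 0.05 (edgeR), and 1794 without.

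Ccl2, Cxcl12, Cxcl16, Il33, Mif and Tnf kept their direction in every alternative that gave a value. Reversals were as follows. Il18 was at -0.10 with library totals, -0.81 with the rod marker covariate and -0.31 to 0.39 with single libraries left out. Il1b ranged over -0.37 to 1.79 in those fits. Cx3cl1 was at 0.21 and Tnfsf13b at 0.39 with the rod marker covariate. Cd44 was at -0.10 with the replicate block by library number and -0.030 to 1.78 with single libraries left out. On the log2 scale, the marker sums with single libraries left out ranged over -1.50 to -0.77 for rods, -0.45 to 0.22 for macrophages and microglia, -0.57 to 0.29 for fibroblasts and mural cells, -0.75 to 0.025 for neutrophils and -1.20 to 0.21 for endothelium. The rod sum then could not pass, since the smallest possible p is 0.0667 or 0.1. With library totals the cone sum was at -1.15 (exact permutation p = 0.0286). Depth limits Il6, Il1b, Tnf and Ccl2 most.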
